A study of Mus musculus with 6 samples.

Results

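Glycosyltransferases, the Golgi and endoplasmic reticulum enzymes that build the sugar chains of glycoproteins and glycolipids, were followed as a group of genes in thymic iNKT1 cells that did or did not carry a loxP-flanked TGF-beta receptor gene. The members were all protein-coding genes of the deposited table whose symbol begins with one of 13 enzyme name stems (B4galnt, B4galt, B3gnt, B3galt, B3galnt, St3gal, St6gal, St8sia, Galnt, Mgat, Fut followed by a digit, Gcnt and C1galt). This gave 73 of the 17985 genes of the table, and the St6gal stem was split by acceptor sugar, so that they fell into 14 families. Of the 73, 63 had a mean of at least 1 CPM (reads of a gene scaled to an equal total for every library) over the 6 libraries and were tested, and 10 lay under it. The group was put together with the fall of one member, B4galnt4, already known from these libraries, so the cKO to Ctrl difference of B4galnt4 is given as a description with no test. The other members entered by their names, but the name stems were chosen with earlier results of these data known.

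The cells were iNKT1 cells, the T-bet-expressing, interferon-producing subset of invariant natural killer T cells, from the thymus of mice on a C57BL/6 background whose ages are not given in the labels. Control mice (Ctrl, 3 libraries) had the genotype Tbx21CreTg;Rosa26-LSL-YFP+/+, and conditional knockout mice (cKO, 3 libraries) had Tbx21CreTg;Rosa26-LSL-YFP+/+;Tgfbr2F/F, with no treatment in either. Both groups therefore carried the Cre transgene driven by Tbx21, the gene of T-bet, and the yellow fluorescent protein reporter, and differed in whether Tgfbr2, the gene of a TGF-beta receptor subunit, was flanked by loxP sites. A Cre of this kind acts in cells once they express Tbx21. Tgfbr2 reads were counted over the gene as a whole, so transcripts of the recombined allele may still add to them, which was not tested. How completely the loxP-flanked stretch was removed cannot be told from these reads. The design text calls the 3 replicates of each group independent, but whether each came from a separate mouse is not stated, so p-values measure the spread between these libraries.

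Sugar chains are made without a template: each glycosyltransferase adds 1 kind of sugar in 1 linkage to a particular acceptor, and the set of enzymes a cell transcribes limits the chains it can carry. On T cells these chains include branched N-glycans, mucin-type O-glycans that carry selectin ligands, and gangliosides, the sialic acid-bearing glycolipids of the plasma membrane. Iterated galactose and N-acetylglucosamine, or the N-acetylgalactosamine-containing LacdiNAc unit made by B4GALNT3 and B4GALNT4, extend them, and sialic acids or fucose cap them. Galectins, selectins and Siglecs read the result.

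The members with the lowest cKO to Ctrl ratio, B4galnt4 and St8sia1, are shown by the 250 bases upstream of their RefSeq start sites, since the promoter is where transcription of these genes starts. Sequences are those of RefSeq on build GRCm38.p6, 5′ to 3′ on the strand of the gene. B4galnt4 spans chr7:141061274-141072119 on the plus strand in the deposited table and its upstream window is chr7:141060728-141060977. The RefSeq start site of B4galnt4, at 141060978, lies before the deposited start of the gene, and the bases between them were not searched. St8sia1 spans chr6:142821545-142964452 on the minus strand and its window is chr6:142964453-142964702. Capitals mark CAGAC or its reverse complement GTCTG, the short core of the SMAD binding element, where it occurs.
B4galnt4: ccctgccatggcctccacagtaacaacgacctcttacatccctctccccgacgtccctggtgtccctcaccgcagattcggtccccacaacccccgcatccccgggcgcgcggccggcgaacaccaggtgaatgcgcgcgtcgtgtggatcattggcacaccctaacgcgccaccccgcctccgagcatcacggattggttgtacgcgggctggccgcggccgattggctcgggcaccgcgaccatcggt
St8sia1: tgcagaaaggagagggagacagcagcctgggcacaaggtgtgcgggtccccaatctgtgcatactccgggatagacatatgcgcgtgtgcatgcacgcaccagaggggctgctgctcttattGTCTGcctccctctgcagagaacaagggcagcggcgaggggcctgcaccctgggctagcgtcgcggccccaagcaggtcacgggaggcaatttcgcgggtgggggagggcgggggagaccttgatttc
The B4galnt4 window held no CAGAC on either strand, and the St8sia1 window held 1, on the opposite strand, 128 bases before the start site. Neither window held the SMAD binding element GTCTAGAC or the TATA box letters TATAAA, each searched on both strands. Over the same stretch of all 32851 promoters in the RefSeq table, 42.2% held CAGAC, 0.167% GTCTAGAC and 12.4% TATAAA. Both windows were rich in G and C, at 67.6% for B4galnt4 and 63.6% for St8sia1 against a median of 52.4% over all promoters, and held 30 and 14 CG dinucleotides against a median of 6. These matches are letters in a window and do not mark binding. Promoters were found for 54 member symbols, and of their 77 windows 26 (33.8%) held CAGAC, 0 held GTCTAGAC and 3 (3.90%) held TATAAA.

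The libraries held between 28832779 and 68092478 reads, which puts a single read at 0.0147 to 0.0347 CPM. No molecular identifiers are named in the labels, so depth describes counting error only. The targeted gene, Tgfbr2, had 461, 461 and 425 CPM in the Ctrl and 289.8, 257.6 and 274 CPM in the cKO libraries, with no overlap; values per library are given here and below in the order of replicates 1, 2 and 3. The 2 replicate 3 libraries stood apart from the other 4 on the first principal component, which held 85.1% of the variance, and listed 4406 (Ctrl) and 4590 (cKO) genes at 0 against at most 5 in any other library. Among the glycosyltransferase genes, 11 were at 0 in both replicate 3 libraries and none was at 0 in replicates 1 or 2; 5 of the 11 (B3galt1, Galnt13, Gcnt3, St8sia2 and St8sia3) still passed the 1 CPM filter, through replicates 1 and 2. Galnt13, for example, was at 15.5 and 14.3 CPM in Ctrl replicates 1 and 2, 18.8 and 12.3 CPM in cKO replicates 1 and 2, and 0 in both replicate 3 libraries. Results are therefore also given for replicates 1 and 2 alone, and with the replicate number as a block.

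The labelled cell type was checked against markers. All 8 iNKT1 markers (Tbx21, Il2rb, Klrb1c, Klrd1, Ifng, Xcl1, Cxcr3 and Ccl5) were in the table, summing to 5208 to 6658 CPM in Ctrl and 6007 to 8232 CPM in cKO libraries. Much of these sums came from Il2rb, at 2357 to 3521 CPM in Ctrl and 2948 to 4383 CPM in cKO libraries. By contrast, markers of double-positive thymocytes (3 of 5 in the table) summed to at most 8.30 CPM in Ctrl and 12.1 CPM in cKO, those of B cells (3 of 5) to at most 11.4 and 11.7 CPM, those of myeloid cells (5 of 5) to at most 12.4 and 12.1 CPM and those of conventional NK cells (4 of 4) to at most 54.5 and 46.3 CPM. Epithelial and stromal markers (3 of 5) reached at most 10.5 and 10.96 CPM, erythroid markers (1 of 4) 3.84 and 4.13 CPM, and iNKT17 markers (3 of 5) 8.59 and 7.80 CPM. The iNKT2 list (5 of 5), whose genes iNKT1 cells also express in part, summed to 407 to 550.4 CPM in Ctrl and 360 to 535 CPM in cKO. The ranges of these sums overlapped between the groups in every list, but single markers moved in both directions. Of the iNKT1 markers, the chemokine gene Xcl1 was lower in cKO (181 ± 26.6 and 91.5 ± 6.51 CPM, limma adjusted p 0.0281), and with the block the chemokine gene Ccl5 (167 ± 25.5 and 372 ± 75.9 CPM, limma adjusted p 0.000780, 0.0631 without) and Il2rb (limma adjusted p 0.0166, 0.99998 without) were higher. Klrb1c varied within Ctrl, at 566, 180 and 703 CPM, against 640, 870 and 1021 CPM in cKO, and passed in neither fit. Of the iNKT2 markers, with the block, Il4 was lower (limma adjusted p 0.00806) and Ccr4 higher (limma adjusted p 0.0115). Their part in the results below was not tested. In RNA of a whole population, fewer cells that express a gene and less RNA per cell cannot be told apart, and this holds for every result here.

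B4galnt4 (ENSMUSG00000055629), which encodes a β1,4-N-acetylgalactosaminyltransferase that makes LacdiNAc, had 49.0, 71.5 and 73.3 CPM in the Ctrl libraries. The cKO libraries had 0.451, 0.809 and 3.52 CPM, from 13, 34 and 240 reads. Every cKO library lay far below every Ctrl library, and within cKO replicate 3 was the highest. Its mean was 64.6 ± 13.6 CPM over the Ctrl libraries and 1.59 ± 1.68 CPM over the cKO libraries (SD, n = 3 each), leaving 2.47% of the Ctrl mean. On the log2(CPM + 1) scale the fold change was -4.82, and -5.11, -5.33 and -4.04 within replicate numbers 1, 2 and 3. The authors' deposited table gives a log2 fold change of -5.17 for B4galnt4. No other gene's exons overlap those of B4galnt4 in GENCODE M21. Per kb of exon, B4galnt4 held rank 14 of the 72 members with a known length in Ctrl and rank 53 in cKO, at 16.8 ± 3.52 and 0.414 ± 0.436 CPM per kb. In both groups its libraries overlapped those of the genes at the ranks beside it, so neither rank is resolved.

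The other members of that family had other patterns. B4galnt1, which encodes the synthase of the gangliosides GM2 and GD2, had the highest level per kb of exon of all glycosyltransferase genes in every library. It had 1550, 1612 and 1774 CPM in the Ctrl libraries against 1556, 1681 and 1957 CPM in the cKO libraries, and the groups overlapped (log2 fold change 0.07 with a standard error of 0.11, limma adjusted p 0.99998). Its exons share 715 bases with Slc26a10 on the opposite strand, which had 7.09 ± 1.14 and 7.98 ± 0.986 CPM. B4galnt2, which makes the Sda antigen, was under the 1 CPM filter in both groups, with means of 0.765 ± 0.325 (Ctrl) and 0.542 ± 0.563 CPM (cKO; SD, n = 3 each).

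St8sia1 (ENSMUSG00000030283) encodes GD3 synthase, the α2,8-sialyltransferase that adds a second sialic acid to the ganglioside GM3. The Ctrl libraries had 25.6, 34.7 and 24.8 CPM of it, and the cKO libraries 2.77, 1.59 and 1.98 CPM, the latter from 80, 67 and 135 reads. All 3 cKO libraries were below all 3 Ctrl libraries, replicate 3 included. St8sia1 fell from 28.3 ± 5.49 to 2.12 ± 0.602 CPM (SD, n = 3 each), or to 7.47% of the Ctrl level, which is -3.24 ± 0.24 (standard error) on the log2(CPM + 1) scale (limma adjusted p 0.00403). It fell in each same-numbered pair, by 2.82, 3.78 and 3.11 on the log2(CPM + 1) scale, and passed in replicates 1 and 2 alone (limma adjusted p 0.000441). Over 11 other settings its adjusted p ran from 4.93e-44 (DESeq2) to 0.0239 (edgeR without the block), and of the 6 limma fits that each left out 1 library it passed in 5, missing the threshold without Ctrl replicate 2 (limma adjusted p 0.0501). The authors' deposited table also marks St8sia1 as lower, with an adjusted p of 3.59e-08. In GENCODE M21, St8sia1 shares 149 exon bases with Gm7457 on the opposite strand, and strand-specific counting is not stated.

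The name stems were chosen with earlier results of these data known, so the counts below describe the members and are no test of the group. Since B4galnt4 was known to be lower when the group was chosen, calls were counted over the other 62 tested members. Of these 1, St8sia1, passed an adjusted p of 0.05 by limma (1.61%), where 0.663% of all 15691 tested genes passed, 0.459% lower and 0.204% higher. With the replicate number as a block 4 of the 62 passed (6.45%), 3 lower and 1 higher, against 2.87% of all tested genes (1.64% lower, 1.24% higher). Beside St8sia1 they were St8sia6, Gcnt1 and B3galt2. In replicates 1 and 2 alone 2 of the 62 passed by limma (all genes 1.85%), St8sia1 and St8sia6. With TMM scaling 1 passed (all genes 0.625%), St8sia1. The quasi-likelihood test of edgeR called 1 of the 62 (all genes 0.261%), again St8sia1, or with the block the same 4 as limma (all genes 2.99%). DESeq2 called 4 of the 62, St8sia1, Gcnt1, B4galt7 and St3gal4. Its share over all genes was 3.53%, with 3955 genes that had no adjusted p taken as not called. In the limma fit of replicates 1 and 2 with the block, added after seeing the data, 6 of the 62 passed. They were the 4 that passed with the block over all libraries, and B4galt7 and Fut8. Of all 15691 tested genes 943 passed in that fit. At an unadjusted limma p under 0.05 there were 5 of the 62 (8.06%, against 6.02% of all tested genes), with St8sia1, Gcnt1, B4galt7 and Galnt6 lower and St3gal4 higher. Most log2 fold changes were small: with B4galnt4 included, 55 of the 63 lay within 0.5 of 0 (87.3%, against 94.3% of all tested genes), and the median was -0.11 against -0.04 over all tested genes. The fold changes by family show B4galnt4 and St8sia1 apart from all others, with St8sia6 next.

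**Figure D1:**
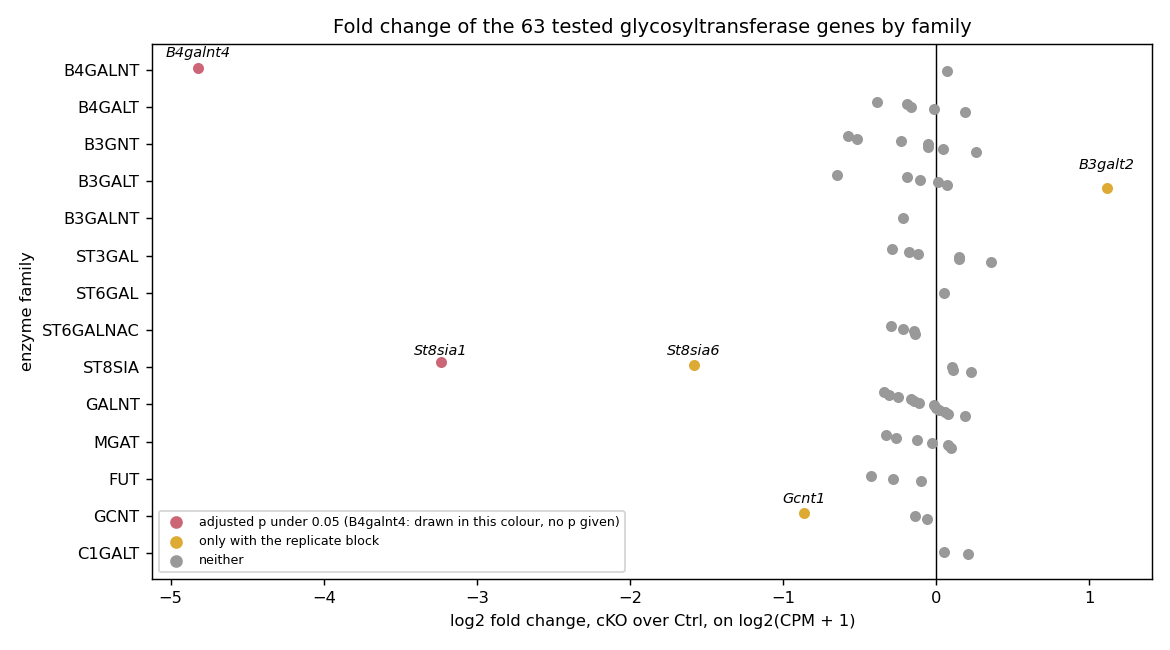
Each point is 1 of the 63 tested glycosyltransferase genes, placed by its log2 fold change of cKO over Ctrl on log2(CPM + 1) (horizontal axis) in its enzyme family (vertical axis); red marks B4galnt4 and St8sia1, yellow the 3 genes that passed only with the replicate block. B4galnt4 is at -4.82 and St8sia1 at -3.24, whereas 55 genes lie within 0.5 of 0.

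St8sia6, a further α2,8-sialyltransferase gene, had 40.9, 30.0 and 13.0 CPM in the Ctrl libraries and 16.4, 11.9 and 1.98 CPM in the cKO libraries. The groups overlapped, because Ctrl replicate 3 lay below cKO replicate 1, but in every same-numbered pair cKO was lower, by 1.26, 1.26 and 2.23 on the log2(CPM + 1) scale. St8sia6 did not pass without the block (log2 fold change -1.58, standard error 0.72, limma adjusted p 0.906) and fell with it (limma adjusted p 0.00482). It also passed in replicates 1 and 2 alone (limma adjusted p 0.0173), but in none of the 6 fits that left out 1 library, where the log2 fold change ran from -2.08 without cKO replicate 1 to -0.81 without cKO replicate 3.

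Gcnt1 encodes the enzyme that starts the core 2 branch of mucin-type O-glycans, on which selectin ligands can be built. The Ctrl libraries had 15.8, 15.8 and 21.02 CPM of it, and the cKO libraries 7.46, 10.8 and 9.40 CPM. The groups did not overlap, with means of 17.5 ± 3.01 (Ctrl) and 9.21 ± 1.67 CPM (cKO; SD, n = 3 each). The log2 fold change of -0.86 did not pass without the block (limma adjusted p 0.232) and passed with it (0.0336, limma). In replicates 1 and 2 alone it was -0.75 (limma adjusted p 0.212).

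B3galt2 encodes a β1,3-galactosyltransferase that acts on N-acetylglucosamine. The Ctrl libraries had 4.13, 4.45 and 1.34 CPM of it, and the cKO libraries 15.3, 8.59 and 3.29 CPM. The groups overlapped, since cKO replicate 3 was below Ctrl replicates 1 and 2, while each cKO library was above the Ctrl library of its number. The log2 fold change, 1.12 ± 0.58 (standard error), did not pass without the block (limma adjusted p 0.99998) and passed with it (0.0286, limma). Single libraries moved it from 0.67 without cKO replicate 1 to 1.63 without cKO replicate 3. B3galt2 shares 679 exon bases with Cdc73 on the opposite strand in GENCODE M21; Cdc73 had means of 49.7 ± 7.46 (Ctrl) and 56.5 ± 8.19 CPM (cKO; SD, n = 3 each).

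**Figure D2:**
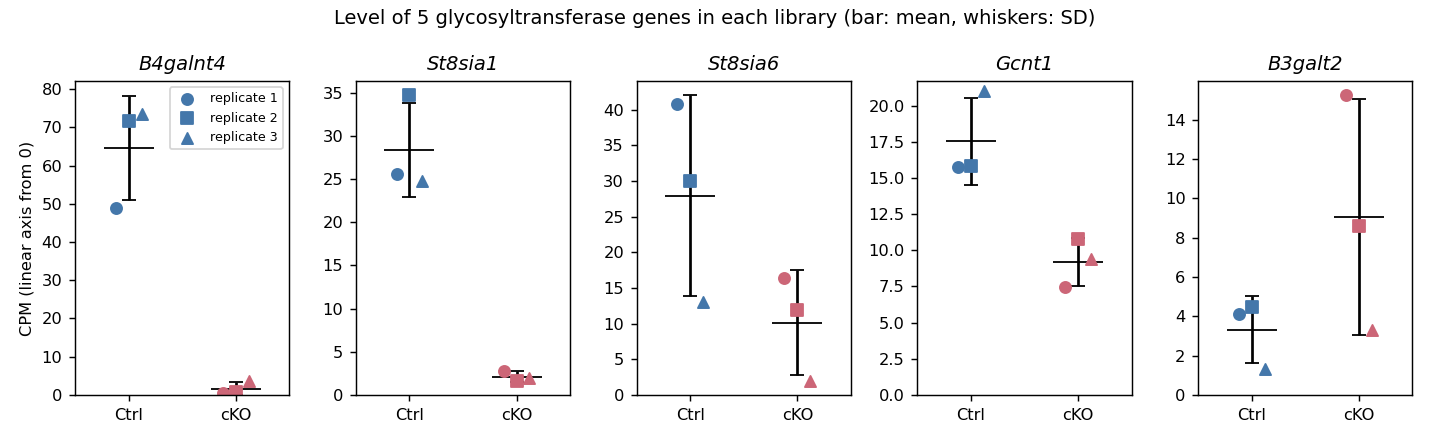
The vertical axes give CPM from 0 in each of the 3 Ctrl (blue) and 3 cKO (red) libraries for B4galnt4, St8sia1, St8sia6, Gcnt1 and B3galt2; symbols mark replicate numbers, the bar the mean and the whiskers the SD. B4galnt4, St8sia1 and Gcnt1 show no overlap between groups, while St8sia6 and B3galt2 overlap, with replicate 3 the lowest library of each group.

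Gangliosides are built in a chain of steps that branches after GM3. Apart from Ugcg its genes taken here were all members, and they were picked from that chain with their values known. Ugcg, whose product makes glucosylceramide, was at 169 ± 14.5 CPM per kb of exon in Ctrl and 173.6 ± 20.5 CPM per kb in cKO (SD, n = 3 each). Of the genes for the lactosylceramide step, B4galt5 was at 12.9 ± 1.87 and 11.2 ± 1.27 CPM per kb, and B4galt6 was at 0.170 ± 0.149 and 0.154 ± 0.143 CPM per kb and under the 1 CPM filter. St3gal5, the GM3 synthase gene, was low in both groups, at 1.15, 0.422 and 0.736 CPM per kb in Ctrl and 1.35, 0.382 and 1.03 CPM per kb in cKO replicates 1 to 3. St8sia1, which acts on GM3, was at 3.03 ± 0.588 CPM per kb in Ctrl and 0.227 ± 0.0644 CPM per kb in cKO. B4galnt1, the GM2 and GD2 synthase gene, acts on both branches, with and without the St8sia1 step. It was at 476 ± 33.5 and 501 ± 59.4 CPM per kb. The later B3galt4 (12.9 ± 1.02 and 13.7 ± 2.38 CPM per kb) and St3gal2 (5.81 ± 1.38 and 5.33 ± 1.31 CPM per kb) were also read in both groups. In this chain only St8sia1 passed the test among the 7 genes tested, with or without the block.

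**Figure D3:**
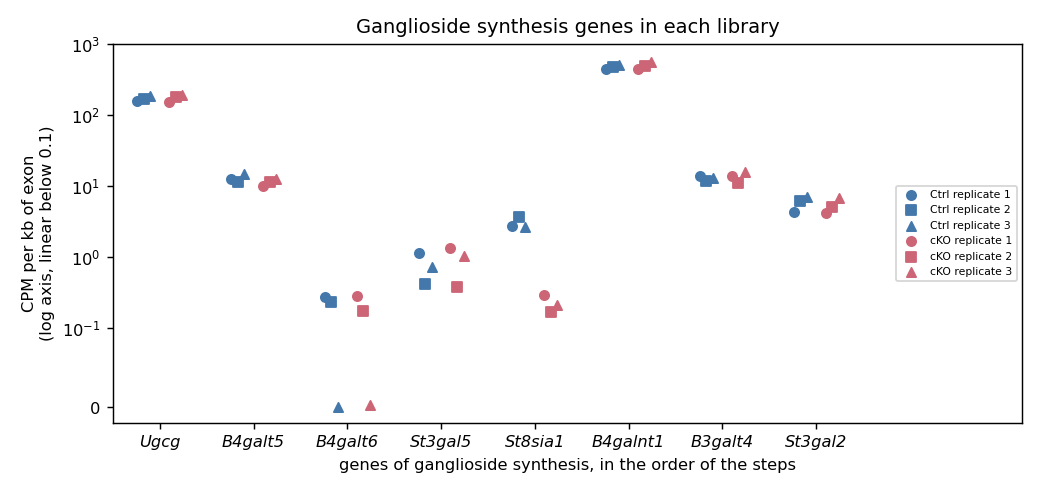
CPM per kb of exon (vertical axis, logarithmic above 0.1 and linear below) of 8 ganglioside synthesis genes (horizontal axis), with 1 symbol per library. The genes are in the order of the steps, which branch after GM3, so that B4galnt1 does not act only after St8sia1. The St8sia1 symbols of the cKO libraries lie between 0.171 and 0.297, below all Ctrl libraries, whereas B4galnt1 lies between 449 and 567 in all 6 libraries.

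Levels were compared between genes per kb of merged exon of GENCODE M21, which was known for 72 members. In Ctrl, B4galnt1 was first, 4.65 times the level of the next gene, Galnt6, at 102.5 ± 8.34 CPM per kb (SD, n = 3). Galnt10 (85.1 ± 4.18) and Mgat2 (78.6 ± 6.36 CPM per kb) followed, and their Ctrl libraries overlapped, so that their order is not resolved. Then came B4galt1 (54.7 ± 3.14), St6gal1 (52.7 ± 1.53) and Galnt1 (49.8 ± 13.3 CPM per kb), also overlapping. Of the 9 neighbouring pairs among the top 10 genes, 5 overlapped. The median over the 72 genes was 3.60 CPM per kb, and 21 genes were above 10 CPM per kb. In cKO the first 2 ranks were held by the same genes, B4galnt1 and Galnt6 (501 ± 59.4 and 86.3 ± 4.81 CPM per kb).

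**Figure D4:**
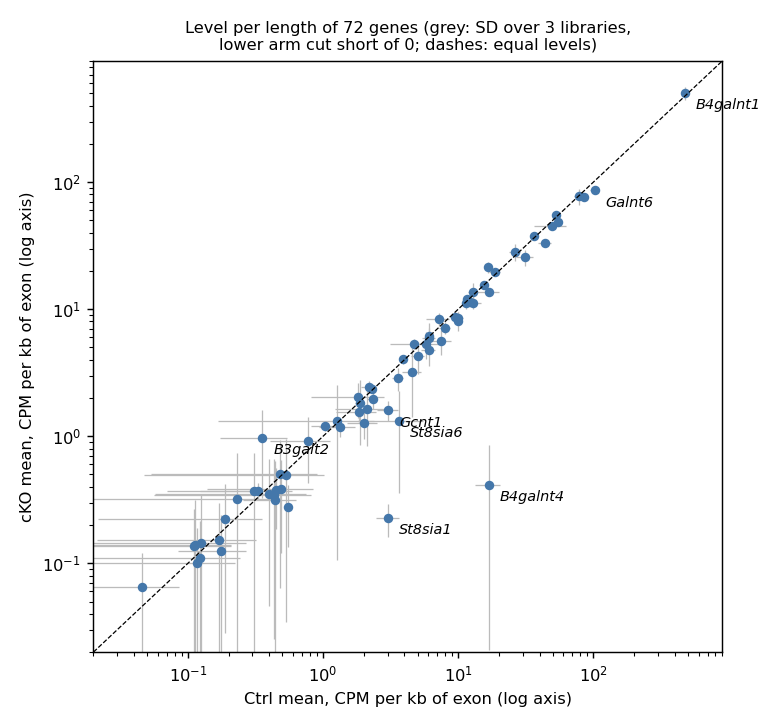
Mean level of 72 glycosyltransferase genes in Ctrl (horizontal axis) and cKO (vertical axis) in CPM per kb of exon, both axes logarithmic, with the SD over 3 libraries in grey and the line of equal levels dashed. Most genes lie near the line; B4galnt4 and St8sia1 lie furthest below it, and B4galnt1 is at the upper end on it.

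Mucin-type O-glycans are started by the polypeptide N-acetylgalactosaminyltransferases of the GALNT family, the largest family here with 15 genes, 12 of them tested. None passed limma's test, with or without the block, or edgeR's or DESeq2's, and their log2 fold changes ran from -0.34 to 0.19; 1, Galnt6, had an unadjusted limma p under 0.05. Galnt6 had 359, 416 and 415 CPM in the Ctrl libraries against 355, 323 and 324 CPM in the cKO libraries. The groups did not overlap, by a margin of a few CPM between Ctrl replicate 1 and cKO replicate 1, and the log2 fold change of -0.25 did not pass (limma adjusted p 0.716). Of the genes for the next step, C1galt1, the core 1 galactosyltransferase, had means of 28.8 ± 9.67 (Ctrl) and 32.5 ± 3.11 CPM (cKO), and C1galt1c1, its chaperone Cosmc, of 16.7 ± 1.05 and 17.3 ± 0.501 CPM (SD, n = 3 each). Galnt2 shares most of its exon bases with another gene model, Gm20388, on the same strand in GENCODE M21, so its value of 4.42 ± 0.947 CPM in Ctrl is uncertain.

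None of the 6 MGAT genes, whose products start and branch complex N-glycans, passed by limma in either fit, by edgeR or by DESeq2, and 0 had an unadjusted limma p under 0.05. Their log2 fold changes ran from -0.33 to 0.10. Mgat2, which adds the N-acetylglucosamine of the second antenna, had means of 206 ± 16.6 (Ctrl) and 203 ± 29.8 CPM (cKO; SD, n = 3 each). Mgat5, whose branch carries poly-N-acetyllactosamine read by galectins, was at 36.6 ± 3.60 and 29.3 ± 6.11 CPM, a log2 fold change of -0.33 (limma adjusted p 0.99998). Among the extending enzymes none of the 5 tested B4GALT and 7 tested B3GNT genes passed by limma, with or without the block; 1, B4galt7, passed by DESeq2 and by limma in replicates 1 and 2 with the block. B4galt1, an N-acetyllactosamine galactosyltransferase gene, had 247, 223 and 225 CPM in the Ctrl libraries against 213, 212 and 195 CPM in the cKO libraries, without overlap but with a log2 fold change of only -0.17 (limma adjusted p 0.99998). B4galt7, which acts in the linkage region of proteoglycans, had 144, 121.5 and 116 CPM in the Ctrl libraries against 103.6, 92.2 and 94.2 CPM in the cKO libraries, a log2 fold change of -0.39 that passed neither without (limma adjusted p 0.412) nor with the block (0.0556, limma). The gene the table calls B3gnt1 is named B4gat1 in GENCODE M21, a glucuronyltransferase that acts on dystroglycan; it was at 26.5 ± 1.21 and 25.6 ± 2.68 CPM, and shares most of its exon bases with another gene model on the same strand, so its level is uncertain. B3galnt2, which also acts on dystroglycan, was at 62.8 ± 5.72 and 54.1 ± 6.53 CPM, and B3galt4 at 20.4 ± 1.62 and 21.6 ± 3.75 CPM (SD, n = 3 each).

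Capping genes outside the ST8SIA family did not pass over all 6 libraries by limma or edgeR, with or without the block. St3gal4 passed by DESeq2, and Fut8 by limma in replicates 1 and 2 with the block. St3gal4, a sialyltransferase gene of selectin ligand synthesis that was singled out after its values were seen, had 49.4, 47.3 and 48.4 CPM in the Ctrl libraries against 56.0, 64.1 and 67.2 CPM in the cKO libraries. Every cKO library was above every Ctrl library, yet the log2 fold change of 0.36 passed neither without (limma adjusted p 0.404) nor with the block (0.159, limma). St3gal6, with the highest level per kb in its family, was at 193 ± 27.1 and 158 ± 23.1 CPM and shares exon bases with Dcbld2 on the opposite strand. St6gal1, which caps N-glycan galactose, was at 259 ± 7.54 and 269 ± 24.4 CPM, and St6galnac4, which acts on sialylated core 1 O-glycans, at 110 ± 20.997 and 88.1 ± 6.36 CPM (SD, n = 3 each). St8sia4, a polysialyltransferase gene, was at 145 ± 28.1 and 169 ± 19.6 CPM, so that within the ST8SIA family the log2 fold changes ran from -3.24 (St8sia1) to 0.23 (St8sia4). Of the fucosyltransferase genes, Fut7, which completes sialyl Lewis x, was at 23.3 ± 1.22 and 19.2 ± 3.34 CPM, Fut8, which adds core fucose, at 59.2 ± 10.5 and 44.1 ± 9.68 CPM, and Fut11 at 51.7 ± 2.98 and 48.4 ± 1.55 CPM.

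Overlap between the groups was also counted. All 3 cKO libraries lay below all 3 Ctrl libraries in 9 of the 63 tested members (14.3%) and in 7.10% of all tested genes. The 9 hold B4galnt4, chosen for its fall, and B3gnt9, which passed the 1 CPM filter only through its Ctrl level (1.39 ± 0.0171 and 0.692 ± 0.352 CPM); without both the count was 7 of 61 (11.5%). The cKO libraries lay above in 1 member, St3gal4 (1.59%), and in 3.89% of all tested genes. The 9 were B4galnt4, St8sia1, Gcnt1, B4galt1, B4galt7, Galnt6, Galnt10, B3gnt7 and B3gnt9. The 10 members under the filter were B4galnt2, B4galt6, Fut9, Fut10, Galnt5, Gcnt2, St6gal2, St6galnac2 and both gene models named Galntl6, with values from 0 to 2.39 CPM in any library. At the filter, B3gnt9 (1.04 CPM) and St6galnac1 (1.05 CPM) were just inside and B4galt6 (0.942 CPM) and Galnt5 (0.918 CPM) just outside.

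The other genes of glycosylation were taken as 7 lists: sugar nucleotide synthesis, donor transport, N-glycan trimming, sialidases, sulfotransferases, other glycosyltransferases, and lectins with their carriers. Of 111 tested genes 1 passed by limma and 3 with the block, against the 0.663% and 2.87% of all tested genes above. The 111 include an entry taken as Lgals12 at chr10:119454034-120087261, which may be a different gene and passed in neither fit. Genes not found by symbol were looked up by synonym, so other entries may also be different genes. With the block, Ggta1, the α1,3-galactosyltransferase gene, was lower, with means of 36.4 ± 2.64 (Ctrl) and 22.5 ± 3.44 CPM (cKO; log2 fold change -0.68, limma adjusted p 0.0177 with the block and 0.146 without). So was Mfng, which encodes a fringe enzyme that extends O-fucose on Notch receptors, at 202 ± 8.90 and 156 ± 7.48 CPM (log2 fold change -0.38, limma adjusted p 0.0401 with the block and 0.179 without). None of the 28 sugar nucleotide synthesis genes, 13 transporters and 9 trimming genes tested passed by limma in either fit. Nor did any of the 4 sialidase-list genes and 10 sulfotransferase genes tested. At an unadjusted limma p under 0.05 there were 13 of 111 (11.7%, against 6.02% of all tested genes). They were 4 of the synthesis genes, 2 of the sulfotransferase genes, 5 of the other glycosyltransferases and 2 of the lectins and carriers. DESeq2 called 8 of the 111 genes of all lists (all genes 3.53%).

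B4galnt4 lies on chromosome 7 beside genes of which some also had lower values in cKO. The table holds 6 genes within 100 kb, all 6 with a negative log2 fold change, from -1.84 to -0.10, a sign that 59.0% of all tested genes shared. Sigirr, Ptdss2 and Rnh1 overlapped between the groups and did not pass by limma, with or without the block. Their log2 fold changes were -0.10, -0.19 and -0.26, with standard errors of 0.12, 0.19 and 0.18. Ifitm3, an interferon-induced antiviral membrane protein gene 50504 bases away, had 24.6, 21.7 and 25.3 CPM in the Ctrl libraries against 6.80, 4.88 and 7.24 CPM in the cKO libraries. Ifitm3 fell by 1.78 on the log2(CPM + 1) scale (limma adjusted p 0.0133). It also passed without cKO replicate 1 (limma adjusted p 0.0330) or cKO replicate 3 (0.0217, limma), but not without the other libraries, where its limma adjusted p ran from 0.0545 to 0.0992. Ifitm3 was 1 of the 6 to pass without the block (all genes 0.663%). With the block 3 of the 6 passed (all genes 2.87%), Ifitm3, Ifitm1 (4.28 ± 2.94 and 0.357 ± 0.261 CPM, limma adjusted p 0.00204 with the block) and Pkp3 (235 ± 35.8 and 172 ± 16.8 CPM, limma adjusted p 0.0223 with the block), the last 6099 bases beyond the end of B4galnt4.

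**Figure D5:**
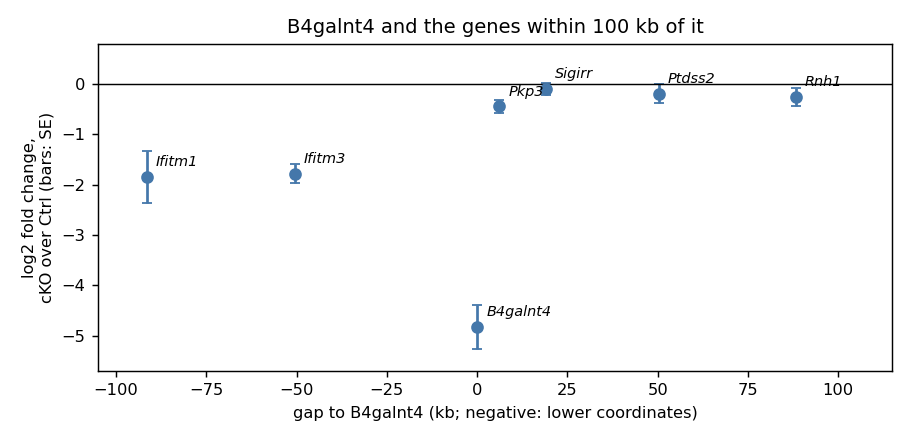
Log2 fold change of cKO over Ctrl with its standard error (vertical axis) of B4galnt4 and the 6 genes within 100 kb, by the gap to B4galnt4 in kb (horizontal axis). B4galnt4 is at -4.82 and the others between -1.84 and -0.10.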

How the data were processed

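RNA-seq of 6 thymic iNKT1 libraries (3 Ctrl, 3 cKO; reads of 75 bases) was deposited as 1 table. The members and gene lists were chosen with earlier results of these data known. The CPM values were computed by the authors from read counts; the submitters' processing notes name Trimmomatic 0.33, STAR 2.5.2, HTSeq 0.6.1, edgeR and build mm10, without roles. The deposited columns further hold the authors' own log2 values (fold change, mean CPM), a test score and p-values. The columns name groups WT and KO, taken as Ctrl and cKO because tissue and replicate number match and no other groups exist. The CPM were whole multiples of 1 read for 100% of values in each library (tolerance 0.01 read), so reads were recovered for edgeR and DESeq2. Listed genes held 99.4% to 99.9% of each total.

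The test was limma 3.58.1 (R 4.3.3) on log2(CPM + 1) of genes averaging 1 CPM or more, group as the only term, trend and robust moderation, Benjamini-Hochberg adjustment over 15691 genes, threshold 0.05; this understates changes of low genes. Every adjusted p is from limma unless another tool is named. Same-numbered libraries deviated together (correlations of 0.855, 0.687 and 0.924 for numbers 1, 2 and 3; the highest with another number were 0.578, 0.718 and -0.698, so that number 2 correlated slightly better with another number), and the replicate number was also fitted as a block. Named genes were B4galnt4, members that passed with or without the block, the member with the highest level per kb in each family, up to 3 passing genes per list and neighbours of B4galnt4 that passed; others are context for these. Alternatives were the block, replicates 1 and 2 alone, pseudocounts of 0.5 and 5, no filter or a mean of 5 CPM, TMM scaling, edgeR 4.0.16 quasi-likelihood, DESeq2 1.42.0 and leaving out each library; the 2-replicate fit with the block was added after seeing the data. Fits were also run on simulated data without a replicate effect, which cannot show how they behave with replicate 3 standing apart as here. With 3 libraries a group an exact permutation test cannot go below 0.1. Merged exon lengths are from GENCODE M21 on GRCm38, which held 72 of the 73 member identifiers, all overlapping the deposited positions. Values of 1 gene of the glycosylation lists are not reported here.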

Additional observations from a re-analysis of the deposited data

How the results depend on the processing

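St8sia1 and B4galnt4 were lower in cKO in all 17 alternatives. B4galnt4 was chosen for its known fall, so its passing is a description and no test. With B4galnt4 counted wherever it passed, the count of glycosyltransferase genes past the threshold was 2 (0 higher, 2 lower). It was 5 (1 higher, 4 lower) with the replicate block, under edgeR with the replicate block and under DESeq2. In replicates 1 and 2 with the replicate block it was 7 (1 higher, 6 lower), and under edgeR without the block 1 (lower). Leaving out 1 library gave 0 to 2, all lower. The count was 0 without Ctrl replicate 2, and 1 without Ctrl replicate 1, Ctrl replicate 3 or cKO replicate 2. When B4galnt4 was not counted, 1 passed in the main fit, and 4 with the replicate block, under edgeR with that block and under DESeq2. In replicates 1 and 2 with the block 6 passed, and under edgeR without it 1. Leaving out 1 library then gave 0 without Ctrl replicate 2 and 1 in every other case. With a pseudocount of 5 the log2 fold change of B4galnt4 was -3.41. Among other glycosylation genes 1 passed, against 3 with the replicate block, 3 in replicates 1 and 2 alone and 13 there with the block, 0 under edgeR and 3 with its replicate block, 8 under DESeq2, and 0 to 1 leaving out 1 library. Over all genes 104 passed, against 451 with the replicate block, 291 in replicates 1 and 2 alone and 943 there with the block, 41 under edgeR and 469 with its replicate block, 554 under DESeq2 (no adjusted p for 3955 genes), and 14 to 85 leaving out 1 library. The cause of these changes was not tested. The block changed no other call among the named genes than those given above with it.

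Values near 0 changed sign. B3galt4 was at -0.0305 in replicates 1 and 2, with or without the block, and from -0.0408 to 0.202 leaving out 1 library. B3gnt1 was at 0.00360 under DESeq2 and from -0.101 to 0.0337 leaving out 1 library, and B4galnt1 from -0.0222 to 0.143. Mgat2 was at 0.0152 under TMM scaling, 0.0307 under edgeR, 0.0157 under edgeR with the replicate block and 0.0364 under DESeq2, and from -0.146 to 0.0372 leaving out 1 library. St6gal1 was at -0.00559 in replicates 1 and 2, with or without the block, and from -0.0198 to 0.104 leaving out 1 library. TMM scaling moved the median of all genes by 0.03; of the 63 members 41 had a negative log2 fold change without it (59.0% of all genes did) and 37 with it (51.8%).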
